A study of Mus musculus with 100 samples.

Results

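Binding of 8 factors and acetylation of histone H3 lysine 27 (H3K27ac) were read at 10 genes of iron handling and the acute phase response in mouse macrophages: Cp, Slc40a1, Slc11a1, Slc11a2, Fth1, Ftl1, Tfrc, Hmox1, Lcn2 and Slc39a14. After treatment with the TLR4 agonist KLA, all 29 factor peaks tested at Cp rose, as did 9 of 10 at Lcn2 and 36 of 63 at Slc39a14, while at Slc40a1 25 of 55 fell and 1 rose. KLA also moved many peaks elsewhere: by factor, 4.53% to 57% of all peaks were called higher and 2.53% to 21.7% lower. The loci were taken as all regions listed under one of the 10 gene names in the 15 count tables, 708 of 610301 regions. A region is listed under the gene with the nearest transcription start site (TSS), which does not show which gene it serves. Regions of different tables whose centres chained within 500 bp were counted as 1 site, giving 100 sites, of which 52 were seen in 5 or more tables and 28 in 1 table. Fth1 had the most regions, 182, followed by Slc39a14 with 95, Slc11a1 with 84, Slc40a1 with 83 and Hmox1 with 81, and the fewest were at Cp with 35, Slc11a2 with 30 and Lcn2 with 13.

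Iron enters a macrophage bound to transferrin through the transferrin receptor (Tfrc) or, unbound, through the transporter ZIP14 (Slc39a14), and crosses the endosomal or phagosomal membrane through DMT1 (Slc11a2) and NRAMP1 (Slc11a1). Heme oxygenase 1 (Hmox1) releases iron from heme, ferritin heavy and light chains (Fth1, Ftl1) store it, and ferroportin (Slc40a1), the one known cellular iron exporter, releases it to the blood, where ceruloplasmin (Cp) oxidises it for loading on transferrin. Lipocalin 2 (Lcn2) binds bacterial siderophores, the molecules with which bacteria take up iron, and Cp, Lcn2 and Slc39a14 are known acute phase genes. In infection, macrophages are known to hold iron back from the blood.

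All factor libraries of bone marrow-derived macrophages (BMDMs) came from cells labelled Wild type, described as C57Bl6, treated with vehicle (Veh) or with KLA, and the labels that state a time give 6 h, except those of the p300 Veh libraries. These give 0 h, so p300 with KLA at 6 h was set against 0 h. The factors comprised 2 members of a corepressor complex, NCoR and the deacetylase HDAC3, the coactivators p300 and PGC1β, the MAP kinase ERK1, and 3 DNA-binding proteins, p65 of NF-κB, Fosl2 of AP-1 and the lineage factor PU.1. PGC1β was also read in Wild type BMDMs labelled DMSO Veh, DMSO KLA and ERKi KLA (an ERK inhibitor), and NCoR in ERKi KLA. H3K27ac was read in 3 tables: NCoR flox/flox cells, which the titles call WT, and NCoR flox/flox, LysMCre cells (NKO), each with Veh and KLA, PGC1b flox/flox cells with and without LysMCre, each with Veh and KLA, and Wild type cells with DMSO Veh, DMSO KLA and RGFP966 KLA (an HDAC3 inhibitor). LysM-Cre is active in cells of the myeloid lineage. ERK1 and p300 were also read in Wild type bone marrow cells at day 0 and day 4 of osteoclast culture, with M-CSF and then RANKL added. The labels give no age, and the study's methods give mice of 8 to 12 weeks for both cultures. Each group had 2 libraries, which the labels call biological replicates without saying that they came from separate mice, so a p-value measures the spread within such pairs of libraries.

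Values are tags per 10 M library tags. A region is called higher or lower where edgeR's quasi-likelihood test, run over the whole table, gave a Benjamini-Hochberg adjusted p under 0.05 with more than a 2-fold change, and fold changes carry standard errors. Where an alternative setting or the loss of 1 library ended a call, the log2 fold change under it follows in parentheses. Library totals ran from 4.30 to 21.5 M tags, and from 2.79% to 52.8% of tags fell in the regions of a table. The Fosl2 KLA replicate 1 library was the shallowest and had 16.4% of its tags in regions against 32.3% in its partner, and HDAC3 KLA replicate 2 had 46.5% against 31.2% in its partner. Macrophage markers carried H3K27ac in the DMSO Veh cells (strongest region of Spi1 1000 and 999, of Itgam 354 and 318, against a median region of 55.6 and 54.1), while the T cell and liver markers Cd3e and Alb had no region. Of the osteoclast markers, Ctsk (414 and 474) lay above Itgam, Ocstamp was at 110 and 121 and Acp5 at 70.6 and 71.5, and Calcr had no region. These libraries hold many cells each, so a lower signal from fewer responding cells cannot be told apart from a lower signal in every cell.

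The sequences under 6 sites that carry the results are given on the plus strand of mm10, 5′ to 3′, taken at the deposited peak bounds. They are the upstream peaks of Cp, Slc39a14 and Lcn2 that rose with KLA, the downstream peak of Slc40a1 that fell, the strongest NCoR peak of Hmox1 and the Tfrc peak that rose in osteoclast culture. Capitals mark matches on either strand to the motif letters searched: those of NF-κB and of IRF factors, TGANTCA for AP-1, GGAAGT for PU.1, TTGCNNAA for C/EBP factors and TGACNNNGC for the antioxidant response element (ARE).
Cp -2895 bp, chr3:19954050-19954269: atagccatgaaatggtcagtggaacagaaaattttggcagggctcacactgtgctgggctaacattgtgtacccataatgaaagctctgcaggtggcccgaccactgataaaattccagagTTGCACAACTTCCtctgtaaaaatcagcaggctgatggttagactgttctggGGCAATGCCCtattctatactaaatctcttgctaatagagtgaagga
Slc39a14 -3452 bp, chr14:70354774-70354978: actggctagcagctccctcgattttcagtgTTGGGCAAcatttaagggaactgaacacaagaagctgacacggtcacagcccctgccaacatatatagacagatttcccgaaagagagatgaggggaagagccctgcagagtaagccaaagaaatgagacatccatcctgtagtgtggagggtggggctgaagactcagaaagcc
Lcn2 -187 bp, chr2:32387824-32388028: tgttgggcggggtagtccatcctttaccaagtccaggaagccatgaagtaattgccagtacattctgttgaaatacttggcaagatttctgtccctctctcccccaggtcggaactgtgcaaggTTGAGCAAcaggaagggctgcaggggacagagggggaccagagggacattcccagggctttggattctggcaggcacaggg
Slc40a1 56667 bp, chr1:45868815-45869040: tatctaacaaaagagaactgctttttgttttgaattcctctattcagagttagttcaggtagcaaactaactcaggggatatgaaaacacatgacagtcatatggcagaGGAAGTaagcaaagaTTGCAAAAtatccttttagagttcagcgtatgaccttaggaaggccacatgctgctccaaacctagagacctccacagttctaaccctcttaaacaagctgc
Hmox1 -3892 bp, chr8:75089613-75089840: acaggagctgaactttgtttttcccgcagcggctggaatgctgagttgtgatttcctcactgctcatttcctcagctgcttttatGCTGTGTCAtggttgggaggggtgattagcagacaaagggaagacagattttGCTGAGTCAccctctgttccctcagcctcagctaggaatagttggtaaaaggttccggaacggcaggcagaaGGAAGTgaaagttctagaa
Tfrc -42012 bp, chr16:32566775-32566993: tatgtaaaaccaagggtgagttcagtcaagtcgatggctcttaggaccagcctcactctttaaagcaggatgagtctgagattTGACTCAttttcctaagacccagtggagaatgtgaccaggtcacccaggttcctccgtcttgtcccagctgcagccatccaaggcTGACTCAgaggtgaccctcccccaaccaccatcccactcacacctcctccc

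The Cp peak held 1 match to the NF-κB letters, which occurred in 8.31% of p65 regions cut to the same length, and 1 match each to the PU.1 letters (40.2% of regions) and the C/EBP letters (17.8%), which share a base. The C/EBP letters also matched once in the Slc39a14, Lcn2 and Slc40a1 peaks, at shares of 17.2%, 17.2% and 18.1% of p65 regions. The Slc40a1 peak also had 1 match to the PU.1 letters (40.5%). The Hmox1 peak held 2 matches to the ARE letters, found in 12.9% of NCoR regions, one of which contains the match to the AP-1 letters (21.8%), and a PU.1 match (43.4%). The Tfrc peak held 2 AP-1 matches, and at least 1 was found in 37.4% of the p300 regions of the osteoclast table. These are descriptions of letters in a window, not of bound sites.

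Over the 8 factors, 460 member peaks were tested for KLA against Veh, 130 were called higher and 55 lower. Peaks of different factors at one site are not independent of each other. The share of all peaks that KLA moved differed widely between factors, so each count by factor is set beside it. No share pooled over the factors was computed. The pooled counts here and the counts by gene below are therefore tallies, to be read beside these shares. For NCoR 14 member peaks were called higher and 17 lower of 66, against 23.4% and 16.7% of all peaks. HDAC3 had 13 higher and 9 lower of 61 (27.5% and 11.3% of all peaks), and with TMM scaling, a normalization that assumes most peaks do not change, 11 and 17. p65 had 36 higher and 3 lower of 58 (57% and 5.43%), and 16 and 11 with TMM. Fosl2 had 8 higher and 4 lower of 44 (11.4% and 4.19%), 12 and 8 with TMM. PU.1 had 5 higher and 11 lower of 54 (4.53% and 21.7%), 7 and 6 with TMM. PGC1β had 14 higher and 4 lower of 49 (16.4% and 6.35%), ERK1 13 higher and 0 lower of 48 (10.3% and 2.53%), and p300 27 higher and 7 lower of 80 (42.1% and 12.9%), 21 and 12 with TMM.

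The median log2 fold change of member peaks lay near that of all peaks for p65 (1.31 against 1.46), PU.1 (-0.36 against -0.41) and p300 (0.56 against 0.65). It was below it for NCoR (-0.46 against 0.10) and HDAC3 (-0.15 against 0.27) and above it for ERK1 (0.68 against 0.26), Fosl2 (0.15 against -0.14) and PGC1β (0.31 against 0.06). TMM scaling moved the median of all peaks from 1.46 to 0.24 for p65, from 0.65 to 0.14 for p300, from 0.27 to -0.01 for HDAC3, from -0.41 to 0.00 for PU.1, from 0.06 to -0.05 for PGC1β and from 0.26 to 0.06 for ERK1, so calls that TMM ends are named below. Leaving out 1 library moved the number of member calls most for NCoR (19 without KLA replicate 1 and 11 without KLA replicate 2), HDAC3 (11 without Veh replicate 1 and 11 without Veh replicate 2), p65 (23 without KLA replicate 1), PGC1β (11 without Veh replicate 1) and ERK1 (5 without KLA replicate 1 and 6 without KLA replicate 2). For Fosl2 the number was 19 without KLA replicate 1, 21 without KLA replicate 2 and 0 without either Veh library, so each Fosl2 call named below rests on both Veh libraries. Fold changes by gene and factor are shown in the plot of member peaks.

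**Figure D1:**
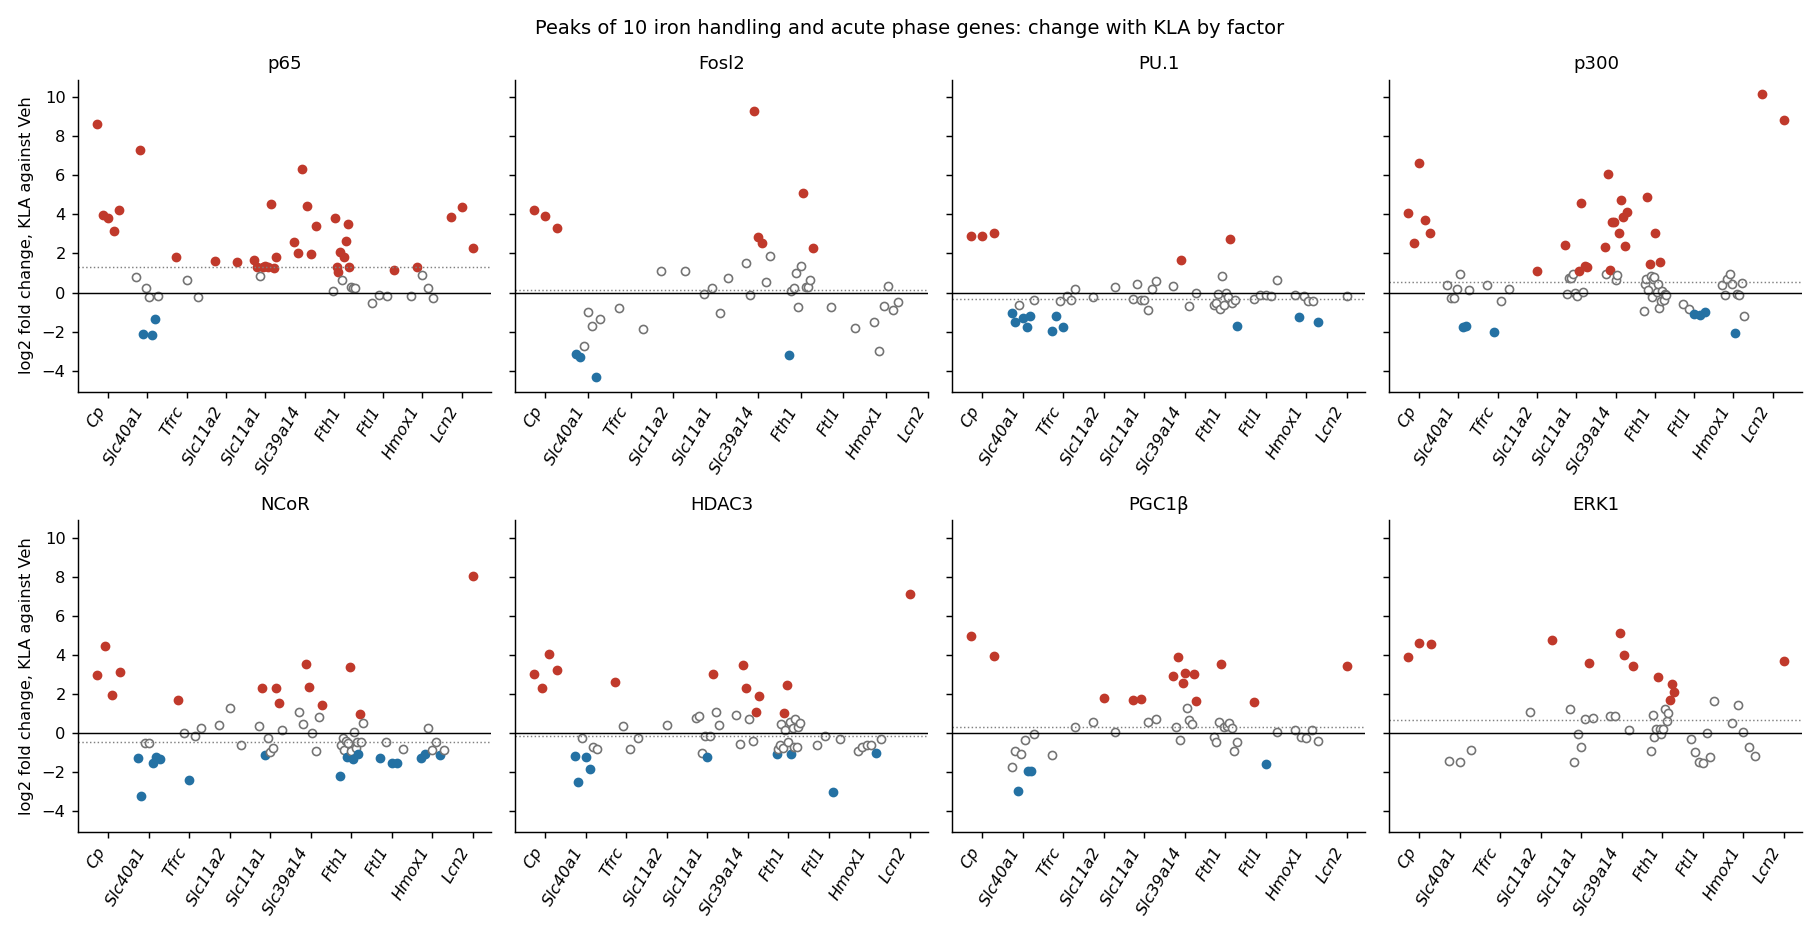
Log2 fold change (KLA against Veh) of every tested member peak, 1 panel per factor and 1 column per gene, with filled points for called peaks (red higher, blue lower), open points for peaks not called and a dotted line at the median of the member peaks. All Cp points are filled red in the 8 panels, and Slc40a1 has blue points for 7 of the 8 factors.

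Ceruloplasmin was the one locus at which each tested peak of each factor was called higher with KLA, 29 of 29, and 29 of 29 with TMM scaling (27 with DESeq2 and 25 with the replicate block). The Cp gene lies on chromosome 3 from 19956933 to 20009750 (mm10), and its 35 regions fell on 6 sites: at the TSS, at -0.6, -1.4 and -2.9 kb, at -19.0 kb (p65 alone) and in an intron at 33.1 kb (p300 alone). At the TSS, p65 rose from 23.6 and 18.6 to 379 and 408 (log2 fold change 4.21 ± 0.25, adjusted p = 7.91e-07). p300 rose there from 23.2 and 19.7 to 264 and 294 (log2 fold change 3.69 ± 0.20), HDAC3 from 26.9 and 19.4 to 191 and 248 (log2 fold change 3.24 ± 0.40) and NCoR from 19.1 and 25.9 to 186 and 205 (log2 fold change 3.11 ± 0.28). KLA libraries of these 4 factors thus all lay above the Veh libraries, corepressor and coactivator alike, as the calls largely imply. PU.1 rose from 10.9 and 17.4 to 126 and 108 (log2 fold change 3.06 ± 0.21) and PGC1β from 1.18 and 8.37 to 86.3 and 73.8 (log2 fold change 3.96 ± 0.50). ERK1 went from 0 and 3.47 to 62.7 and 35.4 (a ratio of 24.9 with a 95% counting interval of 8.20 to 123), a call lost without KLA replicate 1 (adjusted p = 0.117). Fosl2 went from 35.3 and 28.3 to 223 and 402 (log2 fold change 3.30 ± 0.76), a call lost with the replicate block (3.25).

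At the -2.9 kb site, whose sequence is printed above, all 8 factors were called higher as well. The ERK1 call there (6 tags in Veh and 101 with KLA) was lost with DESeq2 (3.81). It held in 3 of the 4 fits that left out 1 library (2.76 to 8.71). p65 went from 25.4 and 30.8 to 421 and 452 (log2 fold change 3.96 ± 0.23), HDAC3 from 33.5 and 17.7 to 161 and 255 (log2 fold change 3.02 ± 0.39) and PGC1β from 0 and 3.25 to 76.5 and 42.3 (log2 fold change 4.97 ± 0.65). Fosl2 went from 23.98 and 3.15 to 144 and 338, with both KLA libraries above both Veh libraries. The site at -1.4 kb was weaker: p65 rose from 5.25 and 5.59 to 74.1 and 81.4, PU.1 from 10.3 and 14.3 to 89.6 and 92.4 and NCoR from 2.39 and 0 to 21.1 and 35.3, where the NCoR call was lost without KLA replicate 2 (4.01). The site at -19.0 kb, seen for p65, went from 0 and 0 to 44.1 and 32.2, at least 28.2-fold higher. No H3K27ac region was listed under Cp in any of the 3 H3K27ac tables. The nearest region lay 60.9 kb from its TSS in the WT and NKO table and 60.0 kb in the other 2. The mark could therefore not be read at this gene from the counted regions. The study's own browser tracks show H3K27ac gained at Cp with KLA, and the study reports less of it there with RGFP966 and without PGC1β. For NCoR-deficient cells it reports less H3K27ac at NCoR and HDAC3 sites that gain the mark, citing the figure that holds Cp. It also reports lower Cp mRNA with KLA in NCoR-deficient cells, with RGFP966, without PGC1β and with an inhibitor of the kinase TBK1.

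**Figure D2:**
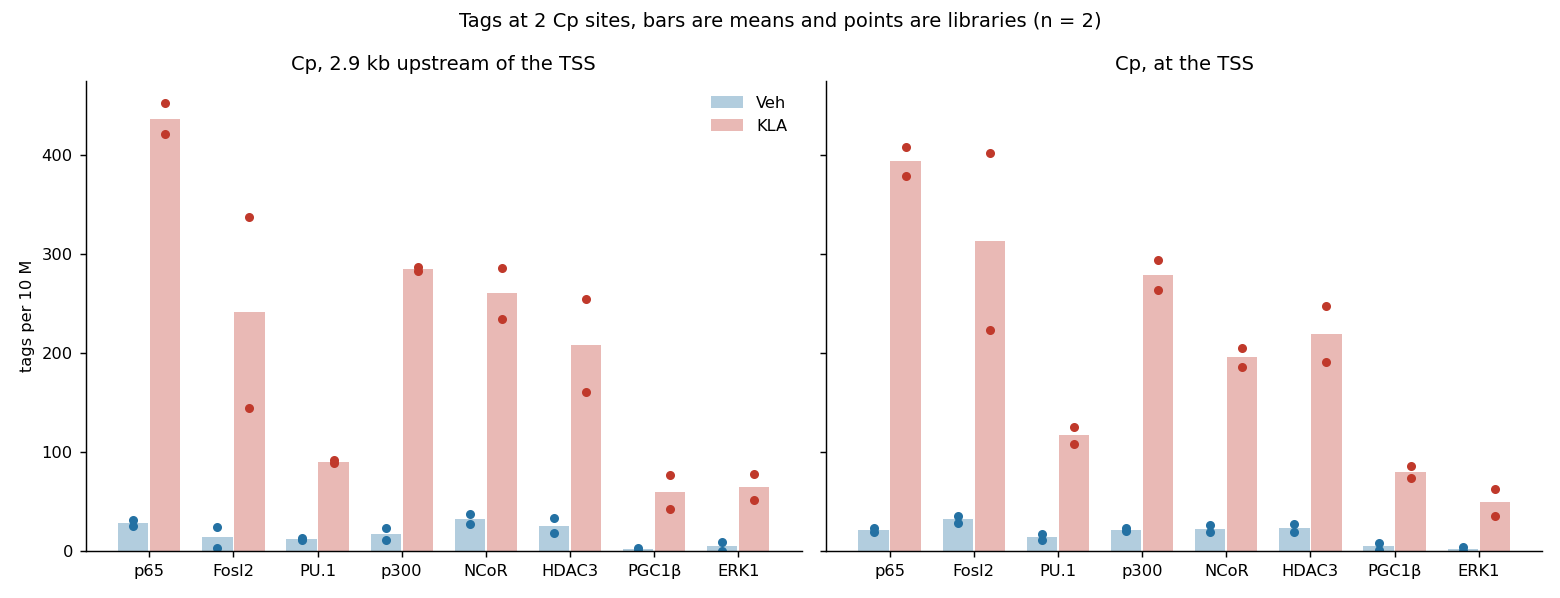
Tags per 10 M (linear axis from 0) at the -2.9 kb site and the TSS of Cp for 8 factors with Veh and KLA, with bars at the mean of 2 libraries and points for the libraries. The KLA points lie above the Veh points for each factor at both sites, from 379 and 408 for p65 at the TSS to 62.7 and 35.4 for ERK1.

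Slc40a1, the iron exporter, moved the other way. Of 55 tested peaks 25 were called lower and 1 higher (28 and 1 with TMM), and 7 of the 8 factors had a peak called lower, ERK1 being the exception with none of 3. The gene lies on chromosome 1 from 45908070 to 45926532, on the minus strand, and several of its sites lie beyond the 3′ end, at 23.5, 44.0, 56.7 and 59.7 kb and at 64953 bp from the TSS. At 56.7 kb p300 fell from 120.3 and 104 to 36.8 and 29.2 (log2 fold change -1.76 ± 0.24, adjusted p = 8.86e-06), and PU.1 from 104 and 98.3 to 32.7 and 28.04 (log2 fold change -1.74 ± 0.18, adjusted p = 5.23e-16). p65 also fell, from 58.7 and 41.9 to 14.7 and 7.53 (log2 fold change -2.17 ± 0.48), against a median rise of all p65 peaks, a call lost without KLA replicate 2 (-1.77). HDAC3 went from 116 and 127 to 46.9 and 15.8 and NCoR from 92.0 and 184 to 53.5 and 42.2. KLA and Veh libraries did not overlap for any of these 5 factors, which the calls largely imply and which adds no support to them. The NCoR call was lost without KLA replicate 2 (-1.36) or without Veh replicate 2 (-0.95), and the HDAC3 call lost without Veh replicate 2 (-1.80).

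The steepest loss of NCoR and HDAC3 at this gene was at 23.5 kb, where NCoR fell from 62.1 and 62.4 to 4.86 and 8.30 (log2 fold change -3.20 ± 0.46, adjusted p = 4.45e-04) and HDAC3 from 56.0 and 60.3 to 4.69 and 21.1 (log2 fold change -2.48 ± 0.53). p300 at the same site was low in both conditions, 16.9 and 9.20 to 12.8 and 8.65, and was not called. At 59.7 kb p300 fell from 115 and 103 to 28.6 and 37.8 (log2 fold change -1.71 ± 0.24). At 44.0 kb, by contrast, p300 went from 169 and 99.9 to 110.5 and 109.7 and p65 from 91.9 and 59.7 to 89.5 and 91.0, neither called, and the Veh and KLA libraries overlapped for both factors. Near the TSS p65 went from 15.8 and 13.98 to 3.34 and 3.42 (log2 fold change -2.11 ± 0.60), a call lost with DESeq2, with the replicate block, without KLA replicate 1 (-2.09) or without KLA replicate 2 (-2.12). The single peak called higher was p65 at -12.4 kb, from 0 and 0 to 15.4 and 14.4 (at least 11.0-fold higher), a call lost without KLA replicate 1 (adjusted p = 0.0818) or without KLA replicate 2 (adjusted p = 0.0823).

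Slc39a14, the importer ZIP14, had 36 of 63 peaks called higher and 0 lower, with calls for each of the 8 factors (34 with TMM). The gene lies on chromosome 14, and its called peaks lay upstream, with those at -19.7, -16.5, -3.4 and -2.9 kb called for more than 1 factor, and in introns, with those at 18.2 and 23.8 kb called for more than 1 factor. At -3.4 kb p65 rose from 7.88 and 6.53 to 144 and 167 (log2 fold change 4.41 ± 0.35, adjusted p = 2.96e-06), p300 from 19.4 and 15.1 to 208 and 213 (log2 fold change 3.60 ± 0.22) and NCoR from 16.7 and 8.24 to 68.0 and 59.5 (log2 fold change 2.34 ± 0.43). PU.1 had its one call of this gene here, from 34.6 and 35.5 to 114 and 108 (log2 fold change 1.66 ± 0.17). At 18.2 kb, in an intron, p300 rose from 12.5 and 5.26 to 238 and 249.7 (log2 fold change 4.75 ± 0.27, adjusted p = 7.56e-10) and ERK1 from 11.0 and 2.31 to 72.5 and 65.3 (log2 fold change 3.44 ± 0.66).

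The -16.5 kb site was almost empty in Veh and bound by 7 factors with KLA. p65 went from 3.50 and 0 to 142 and 161, p300 from 0.627 and 1.97 to 83.4 and 97.3 and HDAC3 from 3.64 and 3.32 to 36.3 and 45.7. Fosl2 went from 0 and 0 to 58.2 and 154, at least 67.7-fold higher. No PU.1 peak was listed at this site. The intronic site at 14.7 kb had high Veh binding that KLA did not raise for NCoR (311 and 324 to 179 and 154, not called) or PU.1 (195 and 203 to 204 and 187, not called), while p65 rose there from 35.9 and 55.0 to 155 and 203 (log2 fold change 1.98 ± 0.28), a call lost with TMM scaling (0.76). At the TSS itself NCoR (26.3 and 20.0 to 25.1 and 21.4) and p300 (13.8 and 33.5 to 45.0 and 27.6) were low and not called. The maps by distance show the contrast between these genes.

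**Figure D3:**
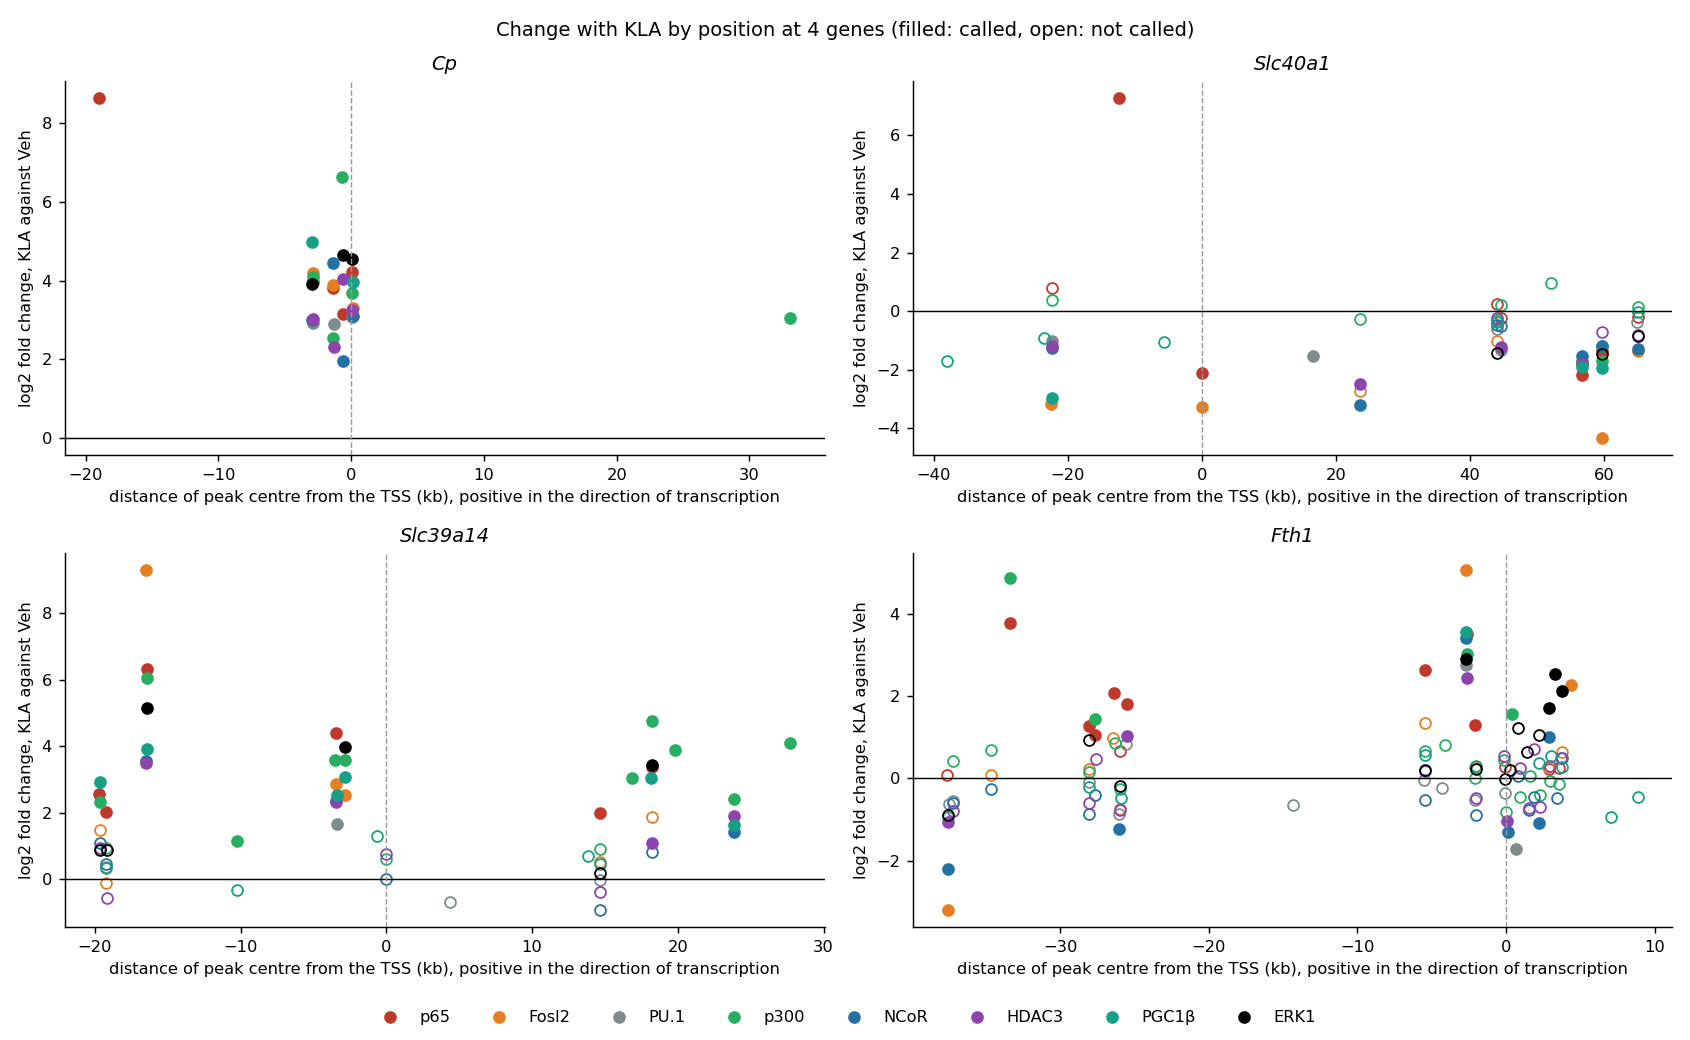
Log2 fold change (KLA against Veh) of each tested peak of Cp, Slc40a1, Slc39a14 and Fth1 against its distance from the TSS in kb, coloured by factor. Cp points all lie above 0, Slc40a1 points at 56.7 and 59.7 kb all lie below 0, and the Fth1 points at -2.7 kb stand above those at -2.0 kb.

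A smaller share of peaks was called at the other transporters. For comparison, 4.53% to 57% of all peaks were called higher and 2.53% to 21.7% lower, depending on the factor. Slc11a1, NRAMP1 of the phagosome, had 20 of 61 peaks called higher and 2 lower, and 10 and 3 with TMM. An intronic site at 3.9 kb rose for 4 factors: p65 from 5.25 and 0 to 64.1 and 65.7 (log2 fold change 4.54 ± 0.68), p300 from 1.88 and 1.97 to 50.6 and 43.8 (log2 fold change 4.57 ± 0.52), HDAC3 from 5.82 and 4.98 to 36.9 and 54.4 (log2 fold change 3.04 ± 0.61) and NCoR from 0 and 9.42 to 23.5 and 24.9. The NCoR call was lost with DESeq2, without KLA replicate 1 (2.37) or without KLA replicate 2 (2.28). At the promoter p65 rose from 77.0 and 109 to 218 and 251 (log2 fold change 1.33 ± 0.23), a call lost with TMM scaling (0.11), while NCoR (288 and 338 to 267 and 255), PU.1 (329 and 367 to 243 and 280.4) and ERK1 (105 and 90.2 to 95.9 and 95.3) were bound in both conditions and were not called. The strongest p65 peak lay in an intron at 6.4 kb, from 88.4 and 88.6 to 311 and 318 (log2 fold change 1.83 ± 0.20), a call lost with TMM scaling (0.60). The regions near -6.0 and -5.1 kb lie on the last exon and 3′ end of a neighbouring transcript, NM_001033345.

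Slc11a2, DMT1, had 5 of 16 peaks called higher and 0 lower. Its main site, in the first intron at 1.6 kb, was strongly bound before KLA: p65 went from 176 and 172 to 500.2 and 568 (log2 fold change 1.62 ± 0.18) and p300 from 175 and 164 to 373 and 342 (log2 fold change 1.08 ± 0.14). Both calls were lost with TMM scaling, at 0.39 for p65 and 0.56 for p300. NCoR (141 and 219 to 244 and 245) and PU.1 (319 and 342 to 285 and 282) were not called there. Tfrc, the transferrin receptor, had 3 of 27 peaks called higher and 5 lower. Near -9.4 kb p300 fell from 43.2 and 36.8 to 11.3 and 8.11 (log2 fold change -2.04 ± 0.41), PU.1 from 45.5 and 51.7 to 16.4 and 12.1 (log2 fold change -1.76 ± 0.25) and NCoR from 33.5 and 73.0 to 12.2 and 8.30 (log2 fold change -2.38 ± 0.51), the last call lost without KLA replicate 2 (-2.12). PU.1 also fell at -45.4 kb, from 118 and 113 to 21.6 and 36.3 (log2 fold change -1.99 ± 0.18). HDAC3 rose at -36.2 kb from 12.4 and 6.64 to 48.1 and 70.2 (log2 fold change 2.63 ± 0.52), a call lost without Veh replicate 2 (2.23). No factor was called at the Tfrc promoter, where p300 was at 30.1 and 30.9 in Veh and 39.9 and 29.7 with KLA.

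Fth1, the ferritin heavy chain, held peaks called in both directions, as did the whole set of peaks for each of the 8 factors. Of 114 peaks 24 were called higher and 8 lower (18 and 13 with TMM), and 82 were not called. At -2.7 kb all 8 factors rose with KLA: p65 from 46.4 and 58.7 to 567 and 625 (log2 fold change 3.50 ± 0.21, adjusted p = 8.49e-07), p300 from 60.8 and 36.8 to 386 and 413 (log2 fold change 3.03 ± 0.19) and NCoR from 14.3 and 17.7 to 173 and 171 (log2 fold change 3.41 ± 0.29). PU.1 rose from 9.83 and 14.9 to 83.7 and 80.9 (log2 fold change 2.75 ± 0.24), PGC1β from 14.1 and 4.65 to 125 and 92.7 (log2 fold change 3.56 ± 0.42) and Fosl2 from 16.9 and 11.5 to 363 and 593. The ERK1 call (0 and 25.4 to 108 and 99.4) was lost with DESeq2, without KLA replicate 1 (2.84) or without KLA replicate 2 (2.96). At -2.0 to -2.1 kb NCoR was at 425 and 463 in Veh and 258 and 221 with KLA, and p300 at 320.3 and 306 in Veh and 301 and 331 with KLA, neither called. p65 rose there from 134 and 152 to 328 and 379.7, a call lost with TMM scaling (0.08). At the -2.7 kb site KLA and Veh libraries did not overlap for any factor, which the calls there largely imply. The p300 libraries at -2.0 kb overlapped.

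Further upstream, p65 at -5.5 kb rose from 68.3 and 112 to 560.3 and 564 (log2 fold change 2.64 ± 0.23), and NCoR at -26.0 kb fell from 263 and 265 to 115 and 109 (log2 fold change -1.24 ± 0.19). Beyond the 3′ end of Fth1, which lies on chromosome 19 from 9980600 to 9985111, ERK1 rose with KLA at 2.9 kb from 73.9 and 62.4 to 251 and 199 (log2 fold change 1.72 ± 0.30), at 3.3 kb from 42.5 and 30.1 to 200.4 and 219 (log2 fold change 2.54 ± 0.33) and at 3.8 kb from 73.9 and 74.0 to 360.2 and 286 (log2 fold change 2.12 ± 0.28). The last of these lies in an intron of the neighbouring transcript NM_011913. NCoR at 3.8 kb (21.5 and 34.1 to 38.1 and 40.8) and p300 at 3.6 kb (363 and 607 to 395 and 486) were not called. PU.1 fell at 0.7 kb from 69.3 and 65.4 to 21.6 and 19.8 (log2 fold change -1.70 ± 0.22). At the TSS NCoR went from 391.9 and 215 to 141 and 107, a call lost without KLA replicate 2 (-1.11) or without Veh replicate 1 (-0.80). Processed copies of ferritin genes are known in the mouse genome and the handling of reads with more than 1 place is not given in the sources used here, so counts over ferritin exons are uncertain.

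Ftl1, the ferritin light chain, had 8 of 35 peaks called lower and 2 higher, 14 and 2 with TMM. HDAC3 fell over its last exon, at 1.7 kb, from 65.5 and 41.5 to 4.69 and 10.5 (log2 fold change -3.00 ± 0.57), and PGC1β fell at 2.6 kb from 239 and 208 to 77.5 and 72.1 (log2 fold change -1.58 ± 0.25). NCoR at 1.7 kb went from 269 and 100.0 to 93.1 and 36.7, with the lower Veh library close to the higher KLA library, and its call was lost with DESeq2, without KLA replicate 2 (-0.98) or without Veh replicate 1 (-0.65). At the promoter HDAC3 (112 and 102 to 69.7 and 129.96) and p65 (96.3 and 120.3 to 101 and 101) were not called. The regions near 2.4 kb lie at the 3′ end of Ftl1 itself, and those near -1.1 kb at the 3′ end of a neighbouring transcript, NM_007527.

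Hmox1, heme oxygenase 1, had 7 of 50 peaks called lower and 1 higher (13 and 0 with TMM). Its strongest NCoR peak, at -3.9 kb, went from 331 and 425 to 192 and 160.5 (log2 fold change -1.10 ± 0.20), and HDAC3 there from 397 and 361 to 146 and 232 (log2 fold change -1.02 ± 0.39). The NCoR call was lost without KLA replicate 2 (-0.98) or without Veh replicate 2 (-0.91), and the HDAC3 call lost with the replicate block, without KLA replicate 1 (-0.71), without Veh replicate 1 (-0.94) or without Veh replicate 2 (-1.08). p300 at this site was at 139 and 152 in Veh and 145 and 128 with KLA, and was not called. The PU.1 peak nearest to the TSS, in the first intron at 0.8 kb, fell from 41.4 and 48.5 to 13.7 and 17.8 (log2 fold change -1.50 ± 0.24). The one rise was p65 at -9.6 kb, from 35.02 and 29.8 to 73.5 and 87.6 (log2 fold change 1.31 ± 0.32), a call lost with TMM scaling (0.08), without KLA replicate 1 (1.43) or without KLA replicate 2 (1.18). Of the other 7 factors none was called at its peak next to the TSS, with p300 from 92.1 and 91.3 to 97.2 and 73.5 and NCoR from 70.5 and 114 to 61.6 and 40.8. The regions near -26.1 and -29.9 kb lie in introns of NM_001136259.

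Lcn2, whose protein binds siderophores, was nearly unbound at its promoter in Veh, with at most 7.004 tags per 10 M in any Veh library of NCoR, HDAC3, p65, PGC1β, ERK1 or p300. There p300 went from 0 and 0.657 to 182 and 179 (a ratio of 564 with a 95% counting interval of 101 to 22294) and NCoR from 0 and 0 to 30.8 and 29.7 (at least 17.0-fold higher). HDAC3 went from 0.727 and 0 to 32.8 and 86.1 (a ratio of 147 with a 95% counting interval of 25.8 to 5855) and p65 from 7.004 and 5.59 to 119.5 and 149.8 (log2 fold change 4.39 ± 0.38). At -1.6 kb p300 went from 0 and 0 to 87.5 and 77.8 (at least 86.0-fold higher) and p65 from 1.75 and 3.73 to 47.4 and 34.9 (log2 fold change 3.88 ± 0.62). In all, 9 of 10 Lcn2 peaks were called higher (8 with TMM). The exception was PU.1 in the last intron at 2.5 kb, bound in both conditions (132 and 127 to 100.1 and 127). No Fosl2 peak was listed under Lcn2. The single H3K27ac region, at -3.4 kb in the WT and NKO table, had at most 0.531 tags per 10 M and was not tested.

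PGC1β was read again in BMDMs given the solvent DMSO, in libraries of their own. Of 62 member peaks 13 were called higher and 1 lower (16.4% and 1.23% of all peaks), and 9 and 2 with TMM, which moved the median of all peaks from 0.45 to 0.01. Cp rose at the TSS from 6.50 and 8.74 to 134 and 137 (log2 fold change 4.17 ± 0.49) and Fth1 at -2.7 kb from 16.2 and 7.29 to 201 and 125 (log2 fold change 3.67 ± 0.43). Slc39a14 rose at 18.2 kb from 1.62 and 17.5 to 88.8 and 90.8 (log2 fold change 3.46 ± 0.58). The peak called lower was Slc40a1 at -5.7 kb, from 50.3 and 68.5 to 9.87 and 7.44 (log2 fold change -2.76 ± 0.62). In the table without DMSO the same site went from 20.6 and 37.2 to 8.74 and 17.7 and was not called. The count of 14 calls fell to 9 without DMSO Veh replicate 1.

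With the ERK inhibitor and KLA, against DMSO and KLA, no member peak of PGC1β was called by edgeR (0 of 62, 8 at an unadjusted p under 0.05, and 1 by DESeq2), where 0.286% of all peaks were called. The Cp TSS peak was at 134 and 137 with DMSO and KLA and at 61.0 and 67.2 with the inhibitor (log2 difference -1.08 ± 0.40), and the Cp peak at -2.9 kb was at 79.0 and 125 and 76.7 and 86.6 (-0.33 ± 0.46). Slc40a1 at -5.7 kb was at 57.9 and 49.1 with the inhibitor, overlapping its DMSO Veh level and above 9.87 and 7.44 in DMSO KLA (log2 difference 2.62 ± 0.62, adjusted p = 0.0639). TMM scaling called that peak higher.

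NCoR fell at many member peaks in the libraries with the ERK inhibitor. Of 65 peaks 35 were called lower and 0 higher against KLA alone (48.6% and 0.634% of all peaks), but 3 lower and 2 higher with TMM, which moved the median of all peaks from -1.20 to -0.04. The member median was -1.28. The KLA libraries are the same ones as in the Veh and KLA comparison, no DMSO library was paired with the inhibitor, and the inhibitor libraries carry another date in their descriptions, so inhibitor and date cannot be told apart. Cp at the TSS went from 192 and 209 with KLA to 37.2 and 44.0 with the inhibitor (log2 fold change -2.30 ± 0.27), a call that TMM kept. Ftl1 at 1.7 kb went from 93.1 and 36.7 to 2.54 and 1.72 (log2 fold change -4.84 ± 0.75), also kept, and Slc40a1 at 44.0 kb from 129.6 and 132 to 19.4 and 31.9 (log2 fold change -2.35 ± 0.28), also kept. These 3 were the calls that stood under both scalings. Slc39a14 had no peak called lower: at 18.2 kb NCoR was at 149.8 and 119 with KLA and 145 and 155 with the inhibitor (log2 fold change 0.16 ± 0.24), and TMM called this peak and the one at 23.8 kb higher. Without KLA replicate 1 the count was 23.

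**Figure D4:**
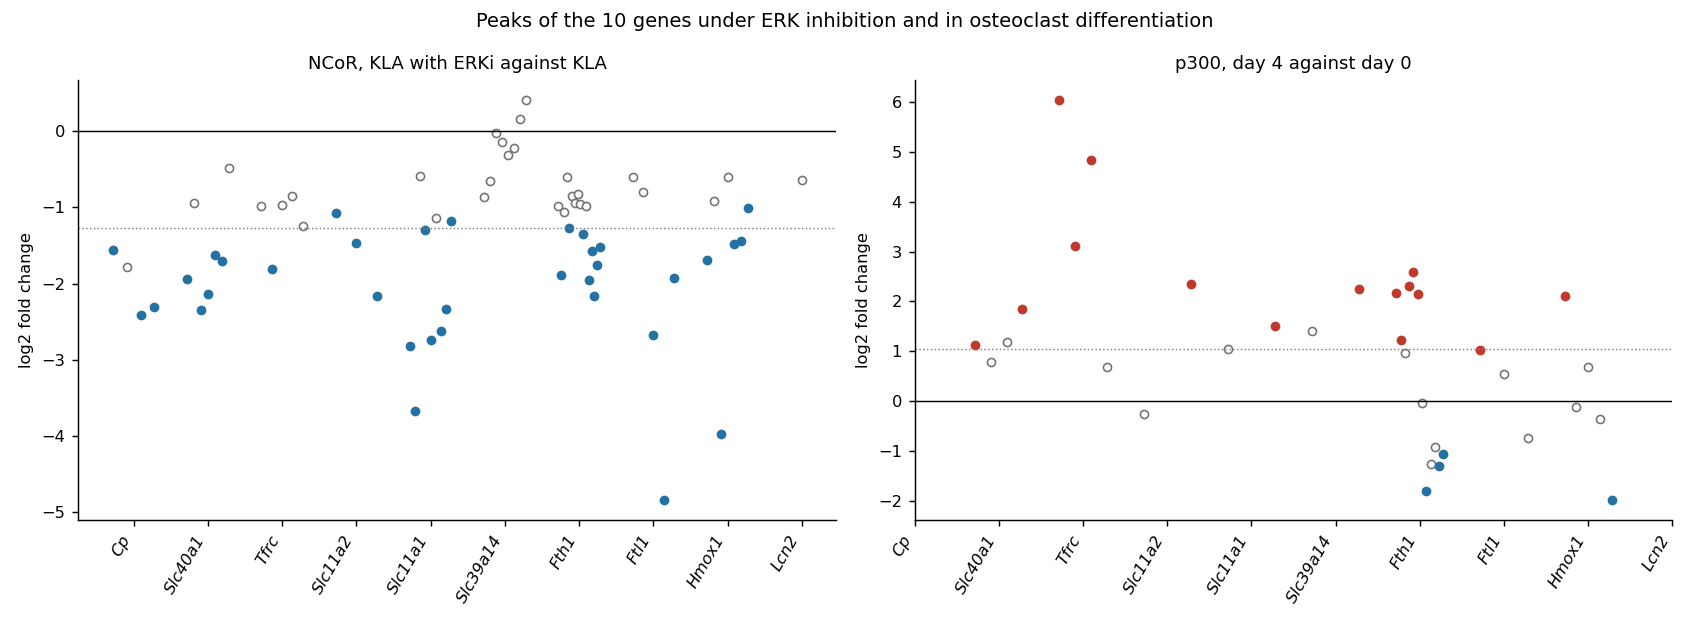
Left, log2 fold change of NCoR at each tested member peak with the ERK inhibitor and KLA against KLA alone. Right, log2 fold change of p300 at each tested member peak at day 4 against day 0 of osteoclast culture, by gene, with filled points for called peaks. On the left the called points lie below 0 with none at Slc39a14, and on the right the Tfrc points reach 6.04.

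H3K27ac was counted at 22 member regions in the WT and NKO table, of which 18 passed the minimum of 16 tags, and at 17 regions of 1000 bp in each of the other tables, of which 16 passed. In Wild type cells with DMSO, KLA raised 3 of the 16 regions and lowered 6 (6.73% and 28.1% of all regions), 5 and 3 with TMM, which moved the median of all regions from -0.42 to 0.00. The largest fall was at Slc40a1, at 56.7 kb from 297 and 275 to 64.1 and 47.1 (log2 fold change -2.35 ± 0.23, adjusted p = 1.10e-22) and at its TSS from 44.0 and 54.1 to 7.77 and 18.5 (log2 fold change -1.95 ± 0.37). Ftl1 at 3.1 kb fell from 245 and 236 to 89.4 and 65.6 (log2 fold change -1.62 ± 0.22). The rises were at Slc39a14, at -19.3 kb from 33.2 and 44.5 to 197 and 149.8 (log2 fold change 2.16 ± 0.25), and at the Slc11a2 promoter from 86.4 and 116 to 291 and 248 (log2 fold change 1.42 ± 0.22). Slc39a14 at 14.6 kb rose from 30.7 and 41.9 to 98.4 and 72.4, a call lost without DMSO KLA replicate 1 (1.00). Groups did not overlap at any of these regions, but the regions were picked as called, so this adds no support to the calls. The Hmox1 region at -26.2 kb fell from 134 and 142 to 64.8 and 46.3, a call lost with TMM scaling (-0.88). At Fth1, the promoter (481 and 498 to 929 and 749.8) and the -5.5 kb region (493 and 463 to 918 and 793) were higher in both KLA libraries, short of the fold limit.

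With RGFP966 and KLA, against DMSO and KLA, 1 of 16 regions was called higher and 2 lower (26.9% and 9.53% of all regions), 1 and 6 with TMM (median of all regions from 0.39 to 0.04). The number was 6 without DMSO KLA replicate 2 and 5 without RGFP966 KLA replicate 1. These comparisons share the DMSO KLA libraries with the one above. Slc40a1 at 56.7 kb stood at 170.5 and 161 with RGFP966, between 64.1 and 47.1 in DMSO KLA and 297 and 275 in DMSO Veh (log2 fold change 1.56 ± 0.23 against DMSO KLA). Its TSS region, however, was at 8.56 and 15.6 with RGFP966, as low as the 7.77 and 18.5 of DMSO KLA, and was not called. The Slc11a2 promoter fell from 291 and 248 to 101 and 112 (log2 fold change -1.34 ± 0.21), to within the range of the DMSO Veh libraries. The Fth1 promoter fell from 929 and 749.8 to 429.8 and 389.5 (log2 fold change -1.04 ± 0.19), a call lost without DMSO KLA replicate 1 (-0.87) or without RGFP966 KLA replicate 2 (-0.97). Slc39a14 at -19.3 kb did not change past the threshold (197 and 149.8 to 211 and 161).

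In PGC1b flox/flox cells without Cre KLA raised 2 regions and lowered 4 of 16 (5.22% and 25.6% of all regions), and 2 and 0 with TMM (median of all regions from -0.45 to -0.02). Slc40a1 at 56.7 kb fell from 171 and 124 to 51.4 and 63.9 (log2 fold change -1.36 ± 0.17), a call lost with TMM scaling (-0.93). Fth1 at -5.5 kb rose from 262 and 275 to 688 and 704 (log2 fold change 1.38 ± 0.08) and the Slc11a2 promoter from 158 and 178 to 386 and 365 (log2 fold change 1.17 ± 0.11). Slc39a14 at 14.6 kb, which rose in the DMSO libraries, was at 201 and 199.5 in Veh and 121 and 112 with KLA here and was not called. Its direction thus differed from that in the DMSO libraries, a difference that was not tested. A narrower region at this site rose in NCoR flox/flox cells (log2 fold change 2.36 ± 0.73). In PGC1b flox/flox, LysMCre cells KLA raised 0 regions and lowered 6 (4.18% and 32.5% of all regions), 3 and 3 with TMM (median of all regions from -0.62 to -0.01). Slc40a1 at 56.7 kb fell from 162 and 179 to 41.9 and 46.2 (log2 fold change -1.94 ± 0.18).

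Between the genotypes no member region was called in Veh by edgeR (0 of 16, 4 at an unadjusted p under 0.05, 0.397% of all regions called). With KLA none was called (12 at an unadjusted p under 0.05, 7.52% of all regions), with 2 called without flox Cre KLA replicate 1 and 1 without flox KLA replicate 2. The difference of the KLA responses, tested as an interaction, was called at 1 region, 0 higher and 1 lower (0.77% and 4.6% of all regions): the Hmox1 promoter, which just passed the 2-fold limit. By the adjusted p alone, with no limit on the fold, 11 of 16 member regions differed, 10 lower and 1 higher (16.4% and 2.10% of all regions). With TMM it was 7 lower and 2 higher (9.27% and 4.92%). Of the 16 interactions 14 were negative. Among them were Fth1 at -5.5 kb (interaction -0.96 ± 0.12, adjusted p = 2.39e-14), the Ftl1 promoter (-0.82 ± 0.13) and the Slc11a1 promoter (-0.83 ± 0.16), while Slc39a14 at 14.6 kb was higher (0.58 ± 0.19). The median interaction was -0.55 over the members and -0.18 over all regions, and -0.37 and 0.01 with TMM. At the Hmox1 promoter the flox cells were at 154 and 134 in Veh and 149 and 118 with KLA, and the Cre cells at 136 and 161 and 77.3 and 59.9 (interaction -1.01 ± 0.22, adjusted p = 1.09e-04). The Cre cells with KLA were below all other libraries. TMM ended this call, as did leaving out Pgc1b flox Cre KLA replicate 2 (-0.83), Pgc1b flox Cre Veh replicate 2 (-0.88), Pgc1b flox KLA replicate 1 (-0.83) or Pgc1b flox Veh replicate 2 (-0.92). At the Fth1 promoter the Cre cells with KLA were at 460.1 and 434 against 707 and 759 in flox cells with KLA (log2 difference -0.71 ± 0.07), and at the Slc11a2 promoter at 204 and 221 against 386 and 365 (-0.82 ± 0.11), both short of the 2-fold limit. With TMM scaling these differences shrank to -0.32 and -0.43. The median difference over the member regions with KLA went from -0.72 to -0.33, so part of each difference depends on the scaling.

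**Figure D5:**
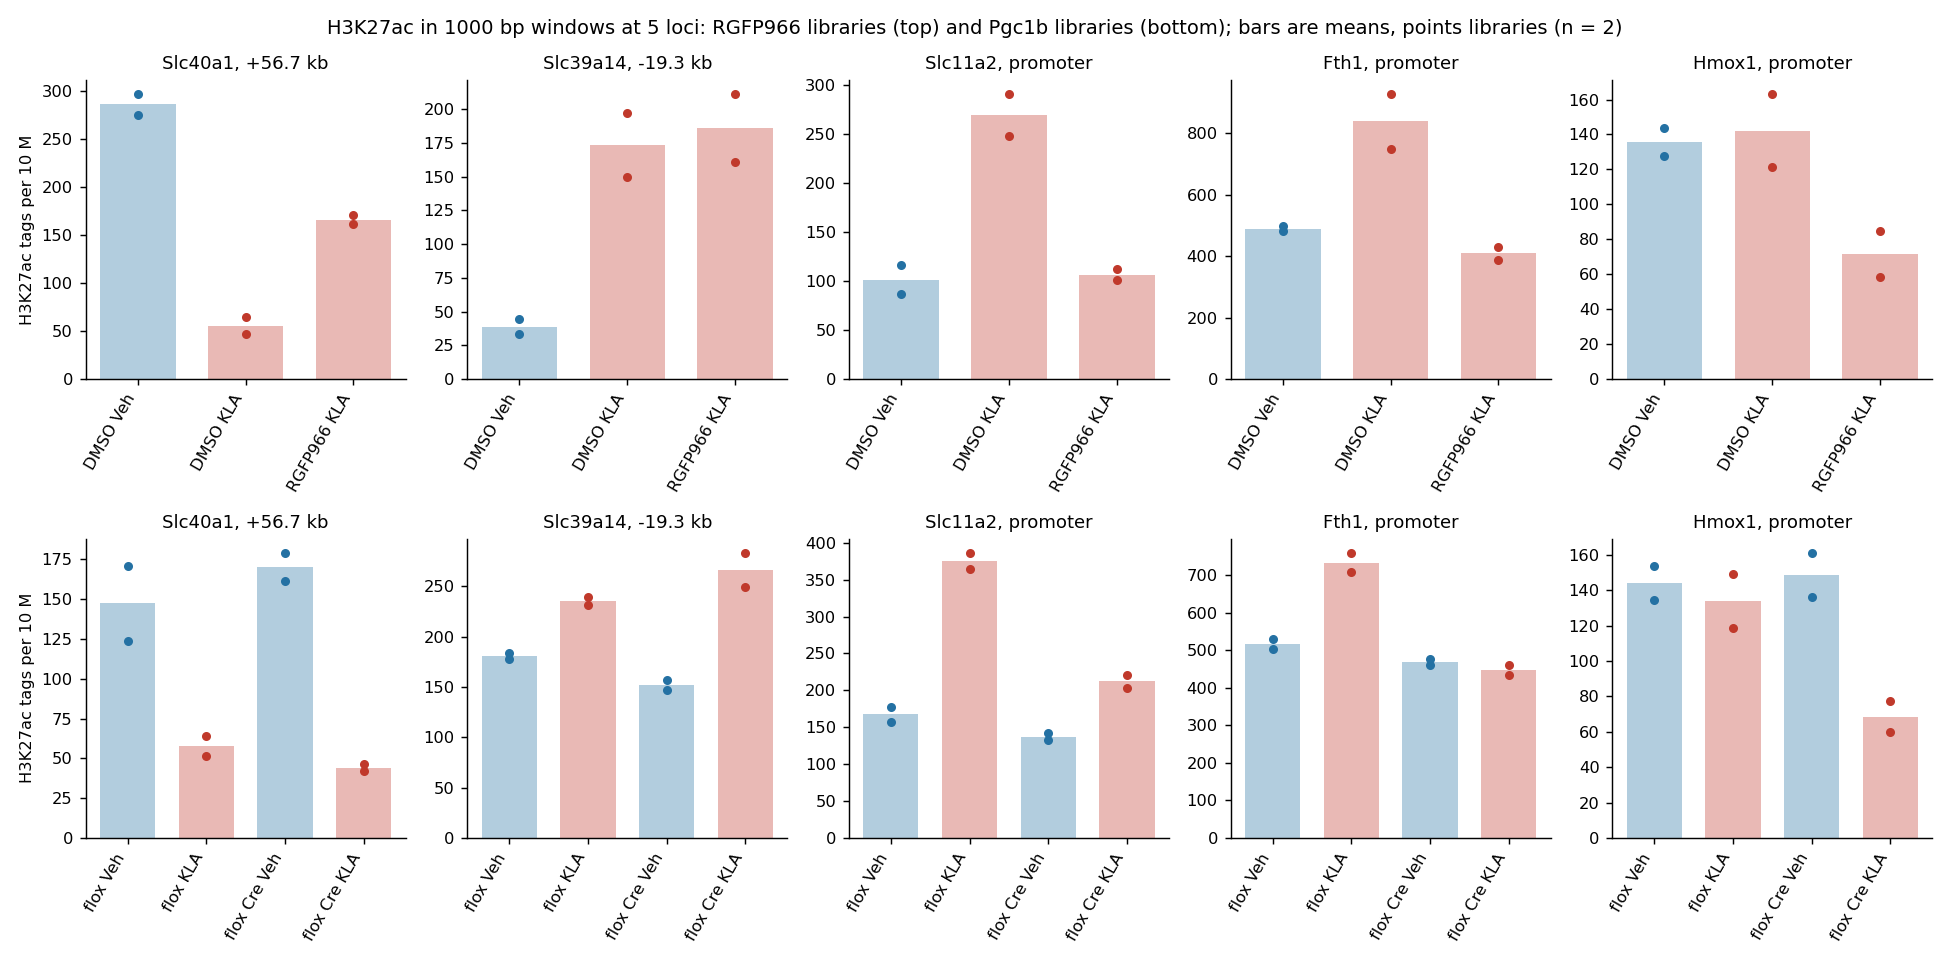
H3K27ac in tags per 10 M (linear axis from 0) at 5 regions, Slc40a1 at 56.7 kb, Slc39a14 at -19.3 kb and the Slc11a2, Fth1 and Hmox1 promoters, with bars at the mean of 2 libraries and points for libraries. The upper row has the DMSO and RGFP966 libraries and the lower row the Pgc1b libraries, and the Slc40a1 region falls with KLA in both.

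In the WT and NKO table KLA raised 4 of 18 regions and lowered 0 in NCoR flox/flox cells (6.49% and 3.72% of all regions) and raised 2 and lowered 0 in NKO cells (2.75% and 7.96%), with 3 and 3 raised under TMM. The counts fell to 2 without WT KLA replicate 2, WT Veh replicate 1 or WT Veh replicate 2, and to 1 without NKO KLA replicate 1, NKO KLA replicate 2 or NKO Veh replicate 2. The Fth1 region at -2.0 kb rose from 17.7 and 15.8 to 52.8 and 73.8 in flox/flox cells (log2 fold change 1.92 ± 0.34) and from 40.6 and 15.1 to 58.9 and 57.6 in NKO cells (log2 fold change 1.10 ± 0.33), the latter call lost without NKO KLA replicate 1 (1.08), without NKO KLA replicate 2 (1.12) or without NKO Veh replicate 2 (0.52). The Slc11a1 intron at 6.5 kb rose from 19.5 and 12.2 to 29.6 and 47.6 in flox/flox cells (log2 fold change 1.29 ± 0.35) and from 24.3 and 27.3 to 62.1 and 82.6 in NKO cells (log2 fold change 1.47 ± 0.32). The flox/flox call was lost without WT KLA replicate 2 (0.91) or without WT Veh replicate 2 (0.97). Also called higher in flox/flox cells were Slc39a14 at 14.7 kb (log2 fold change 2.36 ± 0.73, 48 tags with KLA and 11 in Veh) and Hmox1 at -7.4 kb (1.06 ± 0.33). With 1 library left out these ran from 1.77 to 3.57 and from 0.90 to 1.24, and neither call held throughout. TMM ended the Hmox1 call (0.92). Between NKO and flox/flox cells edgeR called no member region in Veh (3 of 18 at an unadjusted p under 0.05, 0 by DESeq2, 1% of all regions called), none with KLA (4, 0 by DESeq2, 0.789%) and none for the interaction (6, 0 by DESeq2, 0.697%), with 1 called without NKO Veh replicate 2. In these libraries 5.55% to 7.18% of tags fell in regions, the tags behind each value being few.

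In osteoclast culture p300 was read at day 0 and day 4, where p300 at osteoclast genes was higher at day 4 (strongest region of Ctsk from 22.9 and 42.6 to 146 and 118, of Calcr from 0 in both to 142 and 93.0). The median of all p300 regions was also higher at day 4, going from 11.4 and 10.6 to 37.2 and 36.3. So were the strongest regions of the macrophage markers Spi1 (36.9 and 12.8 to 122 and 174) and Adgre1 (40.4 and 57.5 to 90.9 and 123). That of Lyz2 went from 266 and 215 to 122 and 126. Of 34 member peaks 15 were called higher and 4 lower (62.2% and 0.248% of all peaks), 3 and 11 with TMM, which moved the median of all peaks from 1.84 to 0.22. Relative to all p300 peaks, the member median of 1.04 was lower. The 3 calls that stayed higher under TMM were all at Tfrc: at -42.0 kb from 2.64 and 0 to 134 and 126 (a ratio of 69.8 with a 95% counting interval of 23.6 to 341), at -40.2 kb from 21.1 and 14.9 to 181 and 147 (log2 fold change 3.12 ± 0.39) and at -14.0 kb from 2.64 and 0 to 60.6 and 51.0 (a ratio of 30.1 with a 95% counting interval of 10.0 to 148). No BMDM table listed a peak at -42.0 or -40.2 kb. Slc11a2 at 1.7 kb rose from 33.4 and 34.1 to 196 and 146 (log2 fold change 2.34 ± 0.35) and Fth1 at -5.5 kb from 47.5 and 42.6 to 225 and 230.3 (log2 fold change 2.32 ± 0.32), and TMM lost both, at 0.72 and 0.70. The calls lower included Fth1 at 3.0 kb, from 306 and 189 to 104 and 99.8 (log2 fold change -1.30 ± 0.32), a call lost without day 0 replicate 1 (-0.90), without day 4 replicate 1 (-1.32) or without day 4 replicate 2 (-1.26). The count of 19 fell to 8 without day 4 replicate 1 and 7 without day 4 replicate 2.

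ERK1 in the same cultures had no member peak called (0 of 31, 15 at an unadjusted p under 0.05, 4 called by DESeq2, 1 without day 0 replicate 1), where 2.35% of all peaks were called. The member median was 0.99 and the median of all peaks 1.00, or 0.04 with TMM. Fth1 at 3.4 kb went from 72.3 and 110.3 to 263 and 188 (log2 fold change 1.30 ± 0.43) and Ftl1 at 2.5 kb from 99.0 and 116 to 313 and 228 (log2 fold change 1.33 ± 0.40). One day 4 library is described under another replicate number than its title gives and with another date than its partner.

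Other genes of both systems, from lists of 36 iron genes and 24 acute phase genes, were counted the same way for KLA against Veh. Other acute phase genes, among them the serum amyloid, haptoglobin and metallothionein genes, had 44 peaks called higher and 2 lower of 51 for p65, 51 and 2 of 64 for p300, 23 and 0 of 38 for NCoR, 25 and 0 of 39 for HDAC3, 16 and 0 of 34 for PGC1β, 5 and 0 of 16 for ERK1, 8 and 1 of 23 for Fosl2 and 7 and 1 of 19 for PU.1. Of all peaks 57% were called higher for p65, 42.1% for p300, 23.4% for NCoR and 27.5% for HDAC3. For PGC1β this share was 16.4%, for ERK1 10.3%, for Fosl2 11.4% and for PU.1 4.53%. TMM left 30 and 2 for p65 and 46 and 4 for p300. Other iron genes had 36 higher and 10 lower of 86 for p65, 36 and 22 of 109 for p300, 15 and 27 of 109 for NCoR, 18 and 19 of 96 for HDAC3, 9 and 6 of 87 for PGC1β, 2 and 4 of 51 for ERK1, 1 and 4 of 53 for Fosl2 and 3 and 32 of 102 for PU.1. With TMM these became 20 and 30 for p65, 26 and 36 for p300 and 8 and 15 for PU.1. The shares of all peaks without TMM were 57% higher and 5.43% lower for p65, 42.1% and 12.9% for p300 and 4.53% and 21.7% for PU.1. They were 23.4% and 16.7% for NCoR, 27.5% and 11.3% for HDAC3 and 16.4% and 6.35% for PGC1β. For ERK1 they were 10.3% and 2.53%, and for Fosl2 11.4% and 4.19%. The median log2 fold changes of these iron genes were 0.74 for p65 (-0.48 with TMM) and -0.36 for NCoR, against 3.26 (2.05 with TMM) and 1.67 for the acute phase list and 1.46 and 0.10 for all peaks. H3K27ac over the other iron genes was called higher at 3 and lower at 19 of 55 regions for KLA with DMSO, and higher at 19 and lower at 5 with RGFP966 against DMSO KLA. The shares of all regions were 6.73% and 28.1% for KLA and 26.9% and 9.53% for RGFP966. Under TMM the counts for these iron genes were 3 and 10 for KLA and 8 and 9 for RGFP966. The acute phase regions were 2 and 2 of 13 for KLA, and 6 and 0 for RGFP966. Under TMM these were 4 and 1 for KLA and 3 and 1 for RGFP966.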

How the data were processed

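According to the labels and methods, ChIP-seq reads were aligned to mm10 with Bowtie2, peaks were called with HOMER and filtered for reproducibility over replicates, and the authors deposited raw tag counts per region for each library, 1 table for each of 15 experiments. HOMER counted at most 3 tags per position. Factor counts cover peaks merged over conditions, and H3K27ac counts cover accessible regions or windows of 1000 bp. The study's captions describe windows of 1000 bp at open chromatin found with vehicle. Regions that open only with KLA could be missing from such a set, which was not tested. The handling of reads with more than 1 place and tool versions are not given in the sources used here.

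Here 70 libraries of the 100 samples were analysed, and the inputs were not used here. The members and lists were chosen with earlier results of these data known. Tags were scaled per 10 M by the library totals in the file headers. Each table was fitted whole with edgeR 4.0.16 (R 4.3.3), with the library totals as depth and regions kept at 4 tags (factors) or 16 tags (H3K27ac) in at least 1 library. Calls needed a Benjamini-Hochberg adjusted p under 0.05 and over 2-fold change. Where a group had 0 tags, the bound uses a floor of 3 tags over the group. Intervals cover counting error only.

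Alternatives were TMM scaling, DESeq2 1.42.0, no filter, a replicate block and each library left out. The main fit was also run on simulated counts with a fixed spread and few changed rows. Many peaks moved in these data, so that run does not show how the fit performs here. Replicate numbers were not used as pairs in the main fit. Deviations of replicates were nearly uncorrelated between groups (31 correlations, -0.027 to 0.026). Peaks with few tags entered these correlations and their counting noise could hide a pairing, so none was excluded. Named peaks were, per gene and table, the promoter peak within 1000 bp, the strongest peak and the called peak with the lowest p in each direction. Other peaks in the text, among them Cp at -19.0 kb, Slc39a14 at -16.5 kb, the ERK1 peaks of Fth1 at 2.9 and 3.3 kb and Tfrc at -14.0 kb in osteoclast culture, were chosen after their values were seen. Sequences came from the mm10 reference with pysam 0.24.0, and tables and figures were made with Python 3.11.15, pandas 2.3.3, scipy 1.17.1 and matplotlib 3.10.9.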

Additional observations from a re-analysis of the deposited data

Results flagged for a closer look

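The response of H3K27ac to KLA differed between PGC1b flox/flox cells and PGC1b flox/flox, LysMCre cells at 11 of 16 member regions by the adjusted p of the difference itself, of which 10 were lower in Cre cells. On the log2 scale the interaction was -0.45 at -25978 bp of Fth1, -0.96 at -5474 bp, -0.57 at -63 bp and -0.77 at 3453 bp. It was -0.82 and -0.83 at 13 and 2368 bp of Ftl1, -0.49 at -7378 bp of Hmox1, -0.83 at the Slc11a1 promoter, -0.54 at the Slc11a2 promoter and 0.58 at 14628 bp of Slc39a14. The Hmox1 promoter (-51 bp) was the one that also passed the 2-fold limit, at -1.01 (edgeR's quasi-likelihood test, adjusted p over all regions = 1.09e-04, 2 libraries per group). Flox cells had 154 and 134 tags per 10 M in Veh and 149 and 118 with KLA, and Cre cells had 136 and 161 in Veh and 77.3 and 59.9 with KLA. TMM scaling ended this call (-0.83), and so did leaving out any 1 of 4 of the 8 libraries. Over all regions 16.4% were lower and 2.10% higher by the adjusted p, and the median interaction was -0.18. With TMM scaling 7 member regions were lower and 2 higher by the adjusted p, against 9.27% and 4.92% of all regions. The median interaction then went from -0.55 to -0.37 over the members and from -0.18 to 0.01 over all regions.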

How the results depend on the processing

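Each group had 2 libraries, and the effect of depth on the calls of low sites was not tested. Of the settings tried on all libraries, TMM scaling changed the most named calls. Of 143 named calls, DESeq2 kept 134, the replicate block 127, no filter on low counts 143 and TMM scaling 103, while 34 fell short of the threshold with TMM and 6 changed sign. Of 576 repeats that left out 1 library, 463 kept the call. The 6 changes of sign with TMM were, for NCoR with the ERK inhibitor, Slc11a2 at 1648 bp (0.090) and Hmox1 at -52 bp (0.15), for p300 at day 4, Slc40a1 at 44035 bp (-0.48), Ftl1 at -1139 bp (-0.61) and Slc11a1 at 6511 bp (-0.11), and for p65, Ftl1 at 8343 bp (-0.037). With TMM the number of member calls became 20 for Fosl2, 1 for PGC1β with the ERK inhibitor, 5 for NCoR with the ERK inhibitor, 7 for H3K27ac with RGFP966, 2 for H3K27ac with KLA in PGC1b flox/flox cells and 0 for the PGC1b interaction. With DESeq2 it became 1 for PGC1β with the ERK inhibitor, 4 for ERK1 at day 4 and 10 for p300 at day 4. With the replicate block it became 3 for Fosl2 and 1 for ERK1 at day 4, and it moved no other count by over 1.5 times. Leaving out 1 library at a time gave 11 to 33 calls for NCoR, 11 to 29 for HDAC3, 23 to 38 for p65, 0 to 21 for Fosl2, 11 to 21 for PGC1β, 5 to 16 for ERK1, 9 to 14 for PGC1β with DMSO, 23 to 34 for NCoR with the ERK inhibitor, 0 to 1 for ERK1 at day 4 and 7 to 22 for p300 at day 4. For H3K27ac it gave 2 to 3 in WT cells, 1 to 2 in NKO cells, 0 to 1 for the NKO interaction, 2 to 6 with RGFP966, 0 to 2 for PGC1b Cre against flox with KLA and 0 to 1 for the PGC1b interaction. The cause of these changes was not tested.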
